A study of Homo sapiens with 9 samples.

Results

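The 35 genes described here encode proteins of the lysosome and of autophagy, and they were taken as a named list. They were read out of 58214 annotated genes with a matched transcript in poly(A)-selected RNA from K562 cells, a human line from chronic myelogenous leukaemia that expresses embryonic and foetal globins. The comparison was between 3 groups of 3 libraries each, all from cells transfected with siRNA and harvested on day 4: SCR, a nontargeting siRNA pool whose treatment label reads WT, DHX34 knockdown with a siRNA pool, and UPF1 knockdown with siRNAs against UPF1. The sample titles give the line as K562, while the cell line field spells it K652. UPF1 is the central RNA helicase of nonsense-mediated decay (NMD), which removes mRNAs that carry a premature stop codon, and DHX34 is a helicase that acts in the same pathway.

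Lysosomes are acidic compartments in which hydrolases break down proteins, glycans and lipids, and the proton pump V-ATPase keeps them acidic. In autophagy a double membrane closes around cytoplasm and then fuses with the lysosome. The ULK1 and BECN1 complexes start this membrane, and the ATG12-ATG5-ATG16L1 complex couples ubiquitin-like proteins of the ATG8 family to its lipids. Receptors such as SQSTM1 bind cargo to the ATG8 proteins, and the transcription factors TFEB and TFE3 switch on many genes of both systems. Red cell precursors use autophagy to clear their organelles as they mature.

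The libraries held between 73478797 and 103625443 estimated counts. DHX34 stood at 72.3, 74.04 and 74.5 CPM (counts relative to library size, scaled with TMM factors) in the SCR libraries and at 30.1, 30.04 and 33.99 CPM after its own knockdown, and UPF1 fell from 252, 266 and 266 to 105, 107 and 105 CPM, so that the labels held for both targets. All 10 erythroid markers reached a mean of 1 TPM (abundance per transcript length), with a summed level of 25558 to 27154 TPM in SCR, 23532 to 25636 TPM after DHX34 knockdown and 15508 to 16716 TPM after UPF1 knockdown. The sum includes globins at high levels, such as HBG2 at a mean of 4798 CPM in SCR. After UPF1 knockdown 7 of the 10 fell and TFRC rose, by 0.40 ± 0.03 (SE; adjusted p in edgeR = 1.16e-06), where 25.3% of all genes were called. In the monocyte and macrophage list 1 of 7 markers, LYZ, reached 1 TPM. The summed level of that list was 14.1 to 14.7 TPM in SCR, 29.8 to 32.9 TPM after DHX34 knockdown and 12.03 to 12.9 TPM after UPF1 knockdown, with MARCO at 0 throughout. Of the megakaryocytic markers 2 of 8 reached 1 TPM in each group, with sums of 127 to 137 TPM in SCR, 106 to 115 TPM after DHX34 knockdown and 117 to 133 TPM after UPF1 knockdown and with GP9 at 0 throughout. The sum is mostly GP1BB, which fell after DHX34 knockdown with a log2 fold change of -0.45 ± 0.038 (SE; adjusted p in edgeR = 2.49e-05), while ITGA2B and ITGB3 rose from low levels by 1.91 ± 0.085 (SE; adjusted p in edgeR = 4.95e-07) and 1.83 ± 0.2 (SE; adjusted p in edgeR = 0.000107). The lymphoid list, in which 2 of 5 reached it and MS4A1 was at 0, summed to 24.7 to 25.4, 26.03 to 35.3 and 8.50 to 14.3 TPM in that order. The part of these shifts in the values below was not tested.

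All 35 genes were expressed well enough to be tested in each comparison. After DHX34 knockdown 5 of them rose and 0 fell at an adjusted p of at most 0.005, where 10.4% of all 17004 genes tested were called, 5.54% up and 4.86% down. The test was edgeR's quasi-likelihood test, adjusted over all genes by Benjamini-Hochberg. Below, called and not called refer to this test unless another is named. Against the 0, 6 members were lower at an unadjusted p under 0.05, and DESeq2 called 1 as lower. After UPF1 knockdown 10 rose and 4 fell, against 25.3% of 17184 genes called, 12.4% up and 12.9% down. This split was 17 up and 3 down without TMM factors and 19 up and 1 down by limma on log2(TPM + 0.5), and for DHX34 knockdown it was 12 up and 0 down and 7 up and 0 down under the same settings. The members' median log2 fold changes were 0.07 and 0.05 in the 2 knockdowns, against 0.02 and 0.02 over all genes. Both comparisons use the same 3 SCR libraries, so a direct fit of UPF1 knockdown against DHX34 knockdown was made as well. It placed 7 members higher and 3 lower after UPF1 knockdown, against 17.4% of 17435 genes called, 9.89% up and 7.47% down. CPM ranges of the 3 libraries did not overlap in 21 of the 35 genes between DHX34 knockdown and SCR, where 41.5% of all genes did not, in 23 between UPF1 knockdown and SCR, against 50.5%, and in 14 between the knockdowns, against 45.7%.

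The size of these differences depended on the scale. Summed over the 35 genes, the level was 1608, 1640 and 1603 TPM in SCR, 1949, 1954 and 1937 TPM after DHX34 knockdown, and 1956, 2009 and 1993 TPM after UPF1 knockdown, and neither knockdown overlapped SCR. That is 20.4% and 22.8% more than in SCR, while the same sums in TMM-scaled CPM were 8.84% and 10.5% higher. On the log2(TPM + 0.5) scale the median of all genes itself moved up by 0.13 after DHX34 knockdown and by 0.17 after UPF1 knockdown. Of all genes called after DHX34 knockdown 53.3% were up in the CPM-based fit, 79.3% without TMM factors and 89.4% by limma on log2(TPM + 0.5). For UPF1 knockdown the shares were 49.0%, 76.3% and 91.9%, and in the direct comparison 57.0%, 56.4% and 70.2%. Differences below are on the TMM-scaled log2 CPM scale unless TPM is named.

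**Figure D1:**
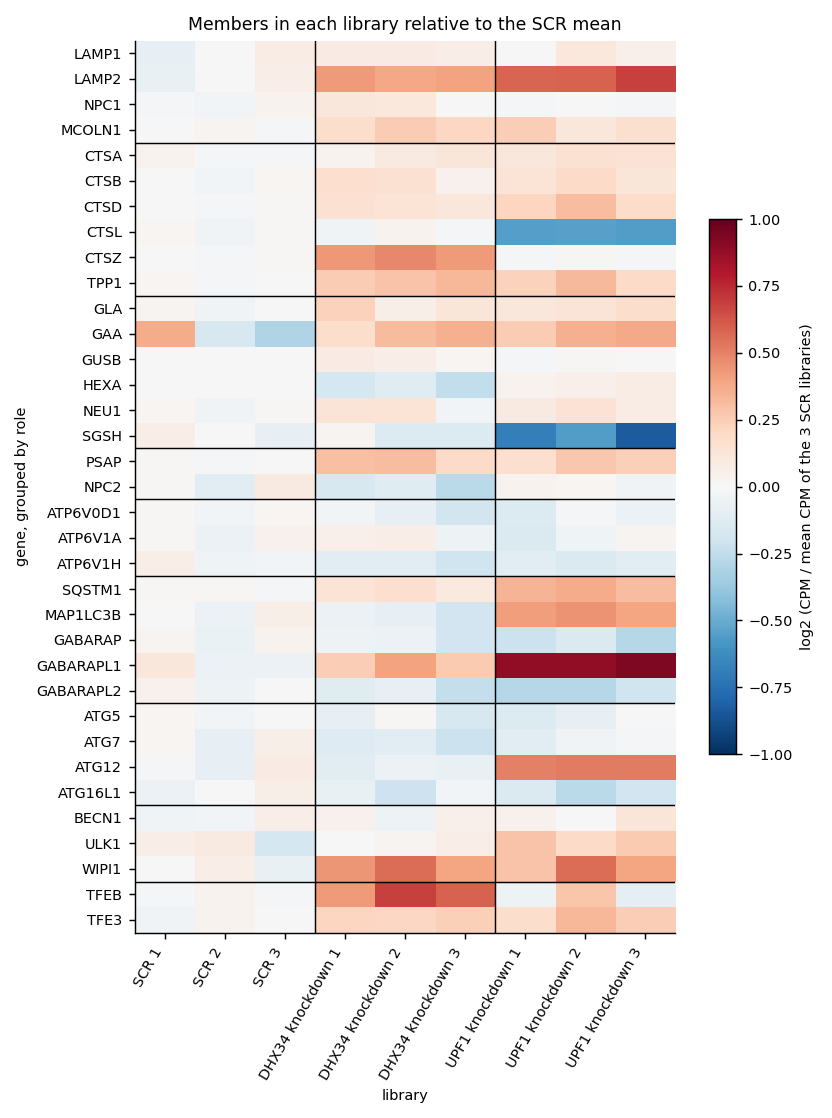
Each cell is the log2 ratio of a gene's CPM in 1 library to its mean over the 3 SCR libraries, with genes in rows grouped by role and the 9 libraries in columns. GABARAPL1, MAP1LC3B, ATG12 and LAMP2 are red and CTSL and SGSH are blue in all 3 UPF1 knockdown libraries, and CTSZ is red in the 3 DHX34 knockdown libraries.

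Levels spanned more than 2 orders of magnitude. Per length, the most abundant member was PSAP, at 267 ± 5.57 TPM in SCR (SD, n = 3), followed by the ATG8 proteins GABARAP at 164 ± 1.37 and GABARAPL2 at 109 ± 2.25 TPM. The least abundant were GAA, the acid glucosidase that degrades glycogen, at 1.75 ± 0.215 TPM, and TFEB at 1.33 ± 0.143 TPM. For GABARAP 84.3% of the 31-base words in its leading transcript also occur in transcripts of other annotated genes. The one that shares most, ENSG00000279641 with 40.6% of the words, was at 0.618, 0.554 and 0.751 TPM in SCR, DHX34 and UPF1 knockdown.

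**Figure D2:**
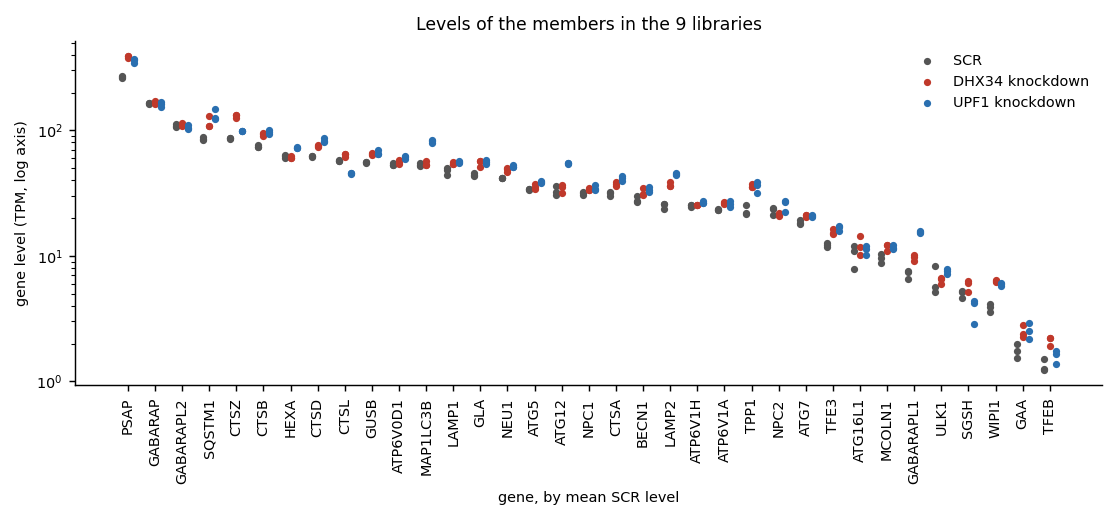
Points are the gene's TPM in each of the 9 libraries on a log axis, with genes ordered by their mean in SCR. PSAP leads at 267 TPM in SCR and TFEB is last at 1.33 TPM.

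Among the lysosomal membrane proteins only LAMP2 was called, and it rose in both knockdowns. The shares called over all genes were 10.4% after DHX34 knockdown and 25.3% after UPF1 knockdown. LAMP2, at GRCh38 chrX:120426148-120469365, minus strand, is a major glycoprotein of the lysosomal membrane and is needed for fusion with autophagosomes. It lay at 69.2, 72.99 and 76.5 CPM in SCR, at 97.9, 95.3 and 96.1 CPM after DHX34 knockdown and at 109, 109.5 and 117 CPM after UPF1 knockdown. The 3 groups did not overlap, with SCR lowest and UPF1 knockdown highest. The log2 fold change was 0.40 ± 0.042 (SE; adjusted p in edgeR = 8.4e-05) for DHX34 knockdown and 0.61 ± 0.041 (SE; adjusted p in edgeR = 5.01e-07) for UPF1 knockdown. The direct difference was 0.23 ± 0.035 (SE; adjusted p in edgeR = 0.000592). In bulk RNA a change in the number of cells of one kind and a change in RNA per cell cannot be told apart. Its companion LAMP1 overlapped between groups, with means of 121 ± 6.37, 128 ± 0.683 and 126 ± 4.18 CPM (SD, n = 3) in SCR, DHX34 and UPF1 knockdown. The cholesterol exporter NPC1 differed from SCR by 0.07 ± 0.045 (SE; adjusted p in edgeR = 0.314) and -0.02 ± 0.034 (SE; adjusted p in edgeR = 0.703). The calcium channel MCOLN1 lay above SCR in every knockdown library but was not called, at 0.21 ± 0.057 (SE; adjusted p in edgeR = 0.0199) and 0.16 ± 0.056 (SE; adjusted p in edgeR = 0.0343).

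Among the proteases the knockdowns differed in CTSZ and CTSL. CTSZ (cathepsin Z, a carboxypeptidase; GRCh38 chr20:58985686-59008238, minus strand) rose after DHX34 knockdown, and CTSL (cathepsin L, an endopeptidase; chr9:87724051-87731469, plus strand) fell after UPF1 knockdown, and both differed between the knockdowns in the direct test. CTSZ was at 113, 112 and 114 CPM in SCR, 152, 157 and 151 CPM after DHX34 knockdown and 111, 114 and 111 CPM after UPF1 knockdown. The DHX34 knockdown libraries stood above all others, and the UPF1 knockdown libraries overlapped SCR. The log2 fold changes were 0.44 ± 0.035 (SE; adjusted p in edgeR = 1.58e-05) and -0.02 ± 0.028 (SE; adjusted p in edgeR = 0.719), and the direct difference, UPF1 knockdown minus DHX34 knockdown, was -0.44 ± 0.03 (SE; adjusted p in edgeR = 1.59e-06). On the log2(TPM + 0.5) scale CTSZ was called higher after UPF1 knockdown too, and with the median of all genes set to 0 it was not.

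CTSL read 66.8, 64.1 and 66.5 CPM in SCR and 64.3, 67.3 and 64.9 CPM after DHX34 knockdown, which overlapped, and 44.8, 45.1 and 44.7 CPM after UPF1 knockdown, below both. The log2 fold change for UPF1 knockdown was -0.56 ± 0.034 (SE; adjusted p in edgeR = 2.56e-07), for DHX34 knockdown -0.01 ± 0.04 (SE; adjusted p in edgeR = 0.901), and the direct difference -0.53 ± 0.035 (SE; adjusted p in edgeR = 1.18e-06). Over the 21 alternative fits the UPF1 change ran from -0.59 to -0.33 and was called in all of them.

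TPP1, a tripeptidyl peptidase whose loss causes a childhood storage disease of neurons, rose in both. Its values were 68.5, 66.7 and 67.5 CPM in SCR, 80.7, 82.2 and 84.8 CPM after DHX34 knockdown and 79.4, 84.5 and 77.2 CPM after UPF1 knockdown. Both knockdowns lay above SCR and overlapped each other, with 0.29 ± 0.037 (SE; adjusted p in edgeR = 0.000313) and 0.24 ± 0.038 (SE; adjusted p in edgeR = 0.000298). CTSD, the main aspartic protease, was 123, 122 and 124 CPM in SCR, 136, 135 and 133 CPM after DHX34 knockdown and 143, 153 and 139.6 CPM after UPF1 knockdown. These groups did not overlap either, but only UPF1 knockdown was called, at 0.23 ± 0.035 (SE; adjusted p in edgeR = 0.000211) against 0.13 ± 0.034 (SE; adjusted p in edgeR = 0.015), and the direct difference of 0.12 ± 0.036 (SE; adjusted p in edgeR = 0.0314) was not. Another annotated gene, ENSG00000250644, shares 61.6% of the 31-base words of CTSD, and its group means were 0.264 TPM or less.

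CTSB, a cysteine protease, had 138, 136 and 140.2 CPM in SCR, 155, 154 and 143 CPM after DHX34 knockdown and 151, 158 and 150.1 CPM after UPF1 knockdown. Both knockdowns lay above SCR, and the call was for UPF1 knockdown at 0.14 ± 0.03 (SE; adjusted p in edgeR = 0.00245). It was lost without SCR replicate 1, 2 or 3 and without UPF1 replicate 1 or 2, with edgeR adjusted p of 0.00684 to 0.0195. For DHX34 knockdown it stood at 0.12 ± 0.042 (SE; adjusted p in edgeR = 0.055), and without DHX34 replicate 3 the adjusted p was 0.00298. The carboxypeptidase CTSA, which also protects NEU1, was not called, at 0.08 ± 0.041 (SE; adjusted p in edgeR = 0.191) and 0.13 ± 0.035 (SE; adjusted p in edgeR = 0.00986).

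**Figure D3:**
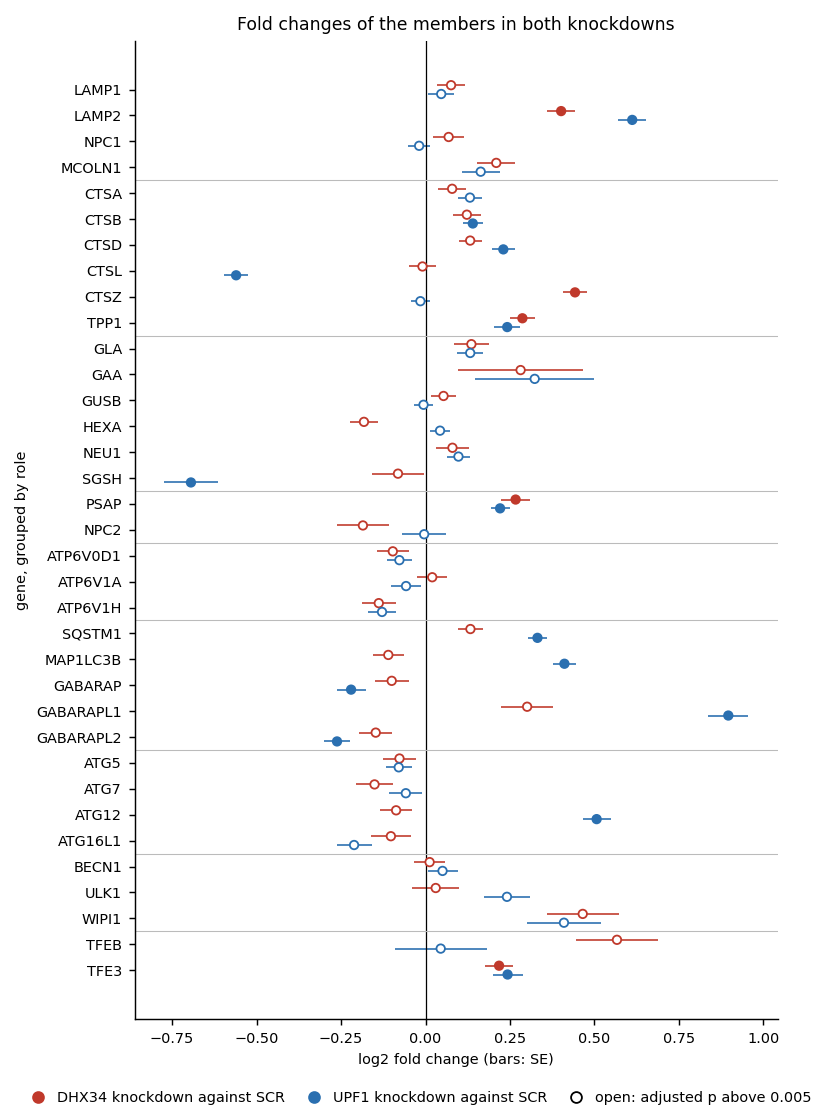
Points are log2 fold changes in CPM for DHX34 knockdown (red) and UPF1 knockdown (blue) against SCR, with bars of 1 SE, filled where the edgeR adjusted p was at most 0.005. Most points lie within 0.25 of 0, and GABARAPL1 at 0.90 and SGSH at -0.69 after UPF1 knockdown are the ends of the range.

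Of the 6 glycan and sulfate hydrolases 1 was called against SCR in the main edgeR fit. Among all genes 10.4% were called after DHX34 knockdown and 25.3% after UPF1 knockdown. SGSH, the sulfamidase that acts on heparan sulfate, fell after UPF1 knockdown. It was 14.2, 13.6 and 12.8 CPM in SCR, 13.8, 12.3 and 12.3 CPM after DHX34 knockdown and 8.45, 9.21 and 7.64 CPM after UPF1 knockdown. The UPF1 knockdown libraries were the lowest and the other groups overlapped, with -0.69 ± 0.08 (SE; adjusted p in edgeR = 2.7e-05) against SCR and -0.59 ± 0.084 (SE; adjusted p in edgeR = 0.000327) against DHX34 knockdown. Both calls were lost with counts scaled for transcript length and by limma on log2(TPM + 0.5), where the direction was the same. HEXA, a subunit of beta-hexosaminidase, differed between the knockdowns. It was 92.2, 92.5 and 92.9 CPM in SCR, 82.1, 85.1 and 77.9 CPM after DHX34 knockdown and 94.6, 95.6 and 97.4 CPM after UPF1 knockdown. The 3 groups were apart with DHX34 knockdown lowest, at -0.18 ± 0.042 (SE; adjusted p in edgeR = 0.00895) against SCR, which the main edgeR fit did not call. DESeq2 called this fall, as did edgeR with no filter on low counts or with all 9 libraries in 1 fit. The direct difference was 0.24 ± 0.037 (SE; adjusted p in edgeR = 0.000556). The direct call was lost with length-scaled counts. GLA (alpha-galactosidase), GUSB (beta-glucuronidase), NEU1 (a sialidase) and GAA were not called in any comparison in the main edgeR fit. Their log2 fold changes were 0.05 to 0.28 for DHX34 knockdown and -0.01 to 0.32 for UPF1 knockdown. Limma on log2(TPM + 0.5) called GLA, GUSB, NEU1 and HEXA higher after UPF1 knockdown. Without TMM factors edgeR called GLA, NEU1 and HEXA higher there. GAA was the least precise, with a 95% interval of -0.02 to 0.67 for UPF1 knockdown, and SCR replicate 1 stood at 2.86 CPM beside 1.98 and 1.80 CPM.

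PSAP, the precursor of 4 sphingolipid activator proteins (saposins), rose in both knockdowns. Its values were 674, 663 and 666 CPM in SCR, 825, 827 and 762 CPM after DHX34 knockdown and 753, 806 and 789 CPM after UPF1 knockdown. Both knockdowns were above SCR and overlapped each other, with 0.27 ± 0.043 (SE; adjusted p in edgeR = 0.00127) and 0.22 ± 0.028 (SE; adjusted p in edgeR = 6.09e-05). The call for DHX34 knockdown was lost without SCR replicate 1, 2 or 3 and without DHX34 replicate 1 or 2, at edgeR adjusted p of 0.00511 to 0.00862. NPC2, which hands cholesterol to NPC1, had log2 fold changes of -0.19 ± 0.078 (SE; adjusted p in edgeR = 0.108) after DHX34 knockdown and -0.0040 ± 0.066 (SE; adjusted p in edgeR = 0.972) after UPF1 knockdown.

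The estimated shares of PSAP transcripts differed after DHX34 knockdown, though no PSAP transcript was called there. The main transcript, PSAP-201, made up 89.3, 89.7 and 89.9% of PSAP TPM in SCR, 81.9, 82.5 and 82.1% after DHX34 knockdown and 90.3, 89.3 and 89.9% after UPF1 knockdown. PSAP-204, singled out after its values were seen, made up 10.1, 9.64 and 9.07%, 17.04, 16.7 and 16.6% and 9.20, 9.97 and 9.07% in the same order. DHX34 knockdown lay apart from the other libraries in both, and the log2 fold change of PSAP-204 was 1.15 ± 0.092 (SE; adjusted p in edgeR over all transcripts = 0.00817), just outside the threshold. PSAP-204 is a partial coding model of 500 bases that holds an exon of 9 bases at GRCh38 chr10:71823888-71823896 on the minus strand, which PSAP-201 lacks. PSAP-201 has 2872 bases, so the models also differ in extent, and a share of TPM is not a measure of how often the exon is used. The junctions are printed here to show the exon by which the models differ at this place, with the exon in capitals in PSAP-204.
PSAP-204: gatgcacatgCAGGATCAGcaacccaagg
PSAP-201: gatgcacatgcaacccaagg

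The 3 V-ATPase subunits were not called in any comparison. Over all genes 10.4%, 25.3% and 17.4% were called in the DHX34, UPF1 and direct comparisons. ATP6V0D1 and ATP6V1A belong to the membrane and catalytic sectors of the pump and ATP6V1H regulates it. Their log2 fold changes were -0.10, 0.02 and -0.14 after DHX34 knockdown and -0.08, -0.06 and -0.13 after UPF1 knockdown. At an unadjusted p under 0.05, 1 was lower in each knockdown and 0 in the direct comparison, and DESeq2 called 0 in all 3. Summed over the 3 genes the CPM was 3.45% and 4.81% below SCR, while the TPM was 5.89% and 11.5% above it, so no direction can be given.

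All 5 genes of the ATG8 family and its receptor were called after UPF1 knockdown, where 25.3% of all genes were called. They went both ways. MAP1LC3B (LC3B; GRCh38 chr16:87383953-87404779, plus strand) and GABARAPL1 (chr12:10212458-10223128, plus strand) rose, while GABARAP and GABARAPL2 fell, all of them ATG8 proteins that are coupled to the growing membrane. GABARAPL1 had the highest fold change of the 35 genes. It was 13.2, 11.7 and 11.7 CPM in SCR, 14.4, 16.1 and 14.6 CPM after DHX34 knockdown and 22.6, 22.6 and 23.3 CPM after UPF1 knockdown. The 3 groups did not overlap, and the changes were 0.90 ± 0.059 (SE; adjusted p in edgeR = 4.24e-07) for UPF1 knockdown, a 1.86-fold rise, and 0.30 ± 0.076 (SE; adjusted p in edgeR = 0.0145) for DHX34 knockdown. The main edgeR fit did not call the latter. DESeq2 did, as did edgeR without TMM factors, with no filter on low counts or with all 9 libraries in 1 fit. The direct difference was 0.61 ± 0.058 (SE; adjusted p in edgeR = 1.69e-05).

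MAP1LC3B was 121, 116 and 126 CPM in SCR, 116, 115 and 106 CPM after DHX34 knockdown and 161, 165 and 159 CPM after UPF1 knockdown. UPF1 knockdown stood above the rest by 0.41 ± 0.033 (SE; adjusted p in edgeR = 2.01e-06) against SCR and 0.54 ± 0.038 (SE; adjusted p in edgeR = 1.76e-06) against DHX34 knockdown, and DHX34 knockdown differed from SCR by -0.11 ± 0.047 (SE; adjusted p in edgeR = 0.11). Over the 21 alternative fits the UPF1 changes ran from 0.37 to 0.61 for MAP1LC3B and from 0.86 to 1.06 for GABARAPL1, called in all of them. MAP1LC3B2, a near copy that shares 21.6% of the MAP1LC3B words, was at 0.459, 0.156 and 0.320 TPM in SCR, DHX34 and UPF1 knockdown.

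GABARAPL2 was 80.9, 75.9 and 78.5 CPM in SCR, 72.05, 74.1 and 66.6 CPM after DHX34 knockdown and 64.3, 64.5 and 68.5 CPM after UPF1 knockdown. GABARAP was 74.6, 69.6 and 75.1 CPM in SCR, 70.4, 70.3 and 64.1 CPM after DHX34 knockdown and 63.1, 66.2 and 60.05 CPM after UPF1 knockdown. In both genes UPF1 knockdown lay below SCR and its range met that of DHX34 knockdown. The UPF1 changes were -0.26 ± 0.038 (SE; adjusted p in edgeR = 0.000175) for GABARAPL2 and -0.22 ± 0.043 (SE; adjusted p in edgeR = 0.0014) for GABARAP. Neither fall was called by limma on log2(TPM + 0.5), where the range over alternatives reached -0.0501 and -0.0294. The GABARAP call was also lost without SCR replicate 1 or 3 and without UPF1 replicate 1 or 3, at edgeR adjusted p of 0.00629 to 0.0082.

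SQSTM1 (p62), the receptor that ties ubiquitinated cargo to ATG8 proteins, rose after UPF1 knockdown. It was 169.6, 169 and 166 CPM in SCR, 185, 189.7 and 180.1 CPM after DHX34 knockdown and 213, 218 and 208 CPM after UPF1 knockdown. The groups were separate and ordered SCR, DHX34 knockdown and UPF1 knockdown, with 0.33 ± 0.029 (SE; adjusted p in edgeR = 3.48e-06) for UPF1 and 0.13 ± 0.037 (SE; adjusted p in edgeR = 0.0212) for DHX34. The direct difference was 0.22 ± 0.032 (SE; adjusted p in edgeR = 0.000462), and without UPF1 replicate 2 its edgeR adjusted p was 0.00507. It was also lost with counts scaled for transcript length and in the 3 limma fits on TPM, with adjusted p up to 0.331. Without DHX34 replicate 3 the adjusted p for DHX34 knockdown was 0.0046. MRNIP, whose transcripts hold 54.4% of the words of the leading SQSTM1 transcript, was at 6.98, 8.49 and 13.1 TPM in the same order, and its part in the SQSTM1 counts was not tested.

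In the conjugation machinery ATG12 rose after UPF1 knockdown and ATG5, ATG7 and ATG16L1 were not called in the main edgeR fit. ATG12 (GRCh38 chr5:115828200-115841837, minus strand) is a ubiquitin-like protein that is joined to ATG5. It was 44.4, 42.4 and 47.5 CPM in SCR, 41.3, 42.9 and 42.4 CPM after DHX34 knockdown and 63.6, 64.1 and 64.1 CPM after UPF1 knockdown. UPF1 knockdown stood above both other groups, which overlapped, by 0.51 ± 0.042 (SE; adjusted p in edgeR = 2.27e-06) against SCR and 0.61 ± 0.035 (SE; adjusted p in edgeR = 3.95e-07) against DHX34 knockdown, and both calls held in all 21 alternative fits. ATG16L1, which places the complex on the membrane, was below SCR in all 3 UPF1 knockdown libraries but not called, at -0.21 ± 0.052 (SE; adjusted p in edgeR = 0.00603). ATG16L1 was called lower by DESeq2 and by edgeR in some other settings, such as no filter on low counts. Its difference was above 0 by limma on log2(TPM + 0.5). ATG7, the activating enzyme, and ATG5 differed from SCR by -0.15 and -0.08 after DHX34 knockdown and by -0.06 and -0.08 after UPF1 knockdown, and limma on log2(TPM + 0.5) gave the opposite sign for all 4.

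The early autophagosome genes ULK1, BECN1 and WIPI1 were not called against SCR in the main edgeR fit. DESeq2 called WIPI1 higher after DHX34 knockdown and ULK1 higher after UPF1 knockdown. So did edgeR without TMM factors or with no filter on low counts. ULK1, the kinase that starts autophagy, was 27.4, 27.8 and 23.1 CPM in SCR, 26.1, 26.5 and 27.3 CPM after DHX34 knockdown and 31.8, 29.8 and 31.3 CPM after UPF1 knockdown. UPF1 knockdown was highest, with 0.24 ± 0.067 (SE; adjusted p in edgeR = 0.0129) against SCR and 0.23 ± 0.046 (SE; adjusted p in edgeR = 0.00319) against DHX34 knockdown. Only the direct difference was called, and it was lost without DHX34 replicate 1 or 2 and without UPF1 replicate 1, 2 or 3, at edgeR adjusted p of 0.00575 to 0.0184. WIPI1, which reads phosphoinositides on the new membrane, was 3.92, 4.10 and 3.72 CPM in SCR, 5.31, 5.78 and 5.15 CPM after DHX34 knockdown and 4.77, 5.76 and 5.15 CPM after UPF1 knockdown. Both knockdowns lay above SCR by about the same amount, 0.47 ± 0.11 (SE; adjusted p in edgeR = 0.00841) and 0.41 ± 0.11 (SE; adjusted p in edgeR = 0.00935), close to the threshold. BECN1, the scaffold of the lipid kinase complex, differed by 0.01 ± 0.046 (SE; adjusted p in edgeR = 0.884) and 0.05 ± 0.044 (SE; adjusted p in edgeR = 0.411).

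Of the transcription factors TFE3 was called in both knockdowns and TFEB in neither. TFE3 was 39.2, 41.2 and 40.3 CPM in SCR, 46.7, 46.3 and 47.4 CPM after DHX34 knockdown and 45.4, 50.5 and 47.6 CPM after UPF1 knockdown. Both knockdowns lay above SCR, by 0.22 ± 0.041 (SE; adjusted p in edgeR = 0.00298) and 0.24 ± 0.044 (SE; adjusted p in edgeR = 0.000852), and overlapped each other. The DHX34 call was lost without SCR replicate 1, 2 or 3 and without DHX34 replicate 1 or 2, at edgeR adjusted p of 0.00812 to 0.0162, and the UPF1 call without SCR replicate 1 or UPF1 replicate 2, at 0.00505 to 0.00669. Length-scaled counts and limma on median-centred log2(TPM + 0.5) lost both calls. The DHX34 call was also lost in the other limma fits, with the gene length or GC content trend removed and with a replicate block. TFEB was 2.81, 2.91 and 2.81 CPM in SCR, 3.82, 4.57 and 4.28 CPM after DHX34 knockdown and 2.74, 3.44 and 2.67 CPM after UPF1 knockdown. DHX34 knockdown was the highest group, at 0.57 ± 0.12 (SE; adjusted p in edgeR = 0.00585), which missed the threshold, and UPF1 knockdown overlapped SCR. The rise after DHX34 knockdown was called by DESeq2 and by edgeR without TMM factors or with no filter on low counts.

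TFEB and TFE3 bind an element built on the palindrome CACGTG. In the RefSeq promoter windows (GRCh38.p14; 250 bases before to 50 after the start), 28 of the 35 genes had at least 1 window, and 7 of these, 25%, held CACGTG. Over all genes with a window 8.77% held it. Both shares are read from the genome sequence and not from these libraries. All 7 held it as TCACGTG or its reverse complement CACGTGA, which 4.49% of all genes did. They were ATP6V0D1, CTSA, CTSD, GAA, LAMP1, MCOLN1 and NEU1. Of these the main edgeR fit called CTSD alone, after UPF1 knockdown, where 25.3% of all genes were called. Limma on log2(TPM + 0.5) also called CTSA, NEU1 and ATP6V0D1 higher after UPF1 knockdown. Without TMM factors edgeR also called MCOLN1, CTSA and NEU1 higher there, and MCOLN1 and CTSD higher after DHX34 knockdown. A match to letters is not a measured binding site. The 7 genes without a window, ATP6V1A, ATP6V1H, CTSB, HEXA, LAMP2, PSAP and SGSH, could not be read for the motif. Among them LAMP2 and PSAP were called in both knockdowns, CTSB and SGSH after UPF1 knockdown and HEXA only in the direct comparison. The sites in CTSD (chr11:1763957-1763986, minus strand), in MCOLN1 (chr19:7522598-7522627, plus strand) and in LAMP1 (chr13:113297199-113297228, plus strand), which held 6 copies in its window, are shown with the palindrome in capitals. They set a gene called in the main edgeR fit beside those not called in it.
CTSD: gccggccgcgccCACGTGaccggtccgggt
MCOLN1: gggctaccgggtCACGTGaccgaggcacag
LAMP1: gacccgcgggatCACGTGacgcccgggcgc

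Transcripts were then read one by one. Of the 437 annotated transcripts of these genes 198 were tested for UPF1 knockdown and 5 were called, where 2.59% of all transcripts were. The transcripts that rose were GABARAPL1-201, at 0.82 ± 0.082 (SE; adjusted p in edgeR over all transcripts = 0.00287), MAP1LC3B-201, at 0.36 ± 0.037 (SE; adjusted p in edgeR over all transcripts = 0.00313), LAMP2-202, at 0.57 ± 0.052 (SE; adjusted p in edgeR over all transcripts = 0.00217), and BECN1-203, at 1.87 ± 0.14 (SE; adjusted p in edgeR over all transcripts = 0.00151). CTSL-201 fell, at -0.70 ± 0.04 (SE; adjusted p in edgeR over all transcripts = 0.000774). All but BECN1-203 are coding transcripts whose gene moved the same way. BECN1-203 retains an intron and read 0.788, 0.708 and 0.640 TPM in SCR, 0.946, 0.766 and 0.950 TPM after DHX34 knockdown and 3.12, 2.99 and 3.18 TPM after UPF1 knockdown, while the BECN1 gene did not pass the test. Leaving out any 1 library left at most 1 of the 5 calls (1 without SCR replicate 2, 0 without any of the others), and DESeq2 called 34. For DHX34 knockdown 0 of 196 were called, against 0.0463% of all transcripts. At an unadjusted p under 0.05, 21 were higher and 8 lower, and DESeq2 called 5 higher and 1 lower.

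**Figure D4:**
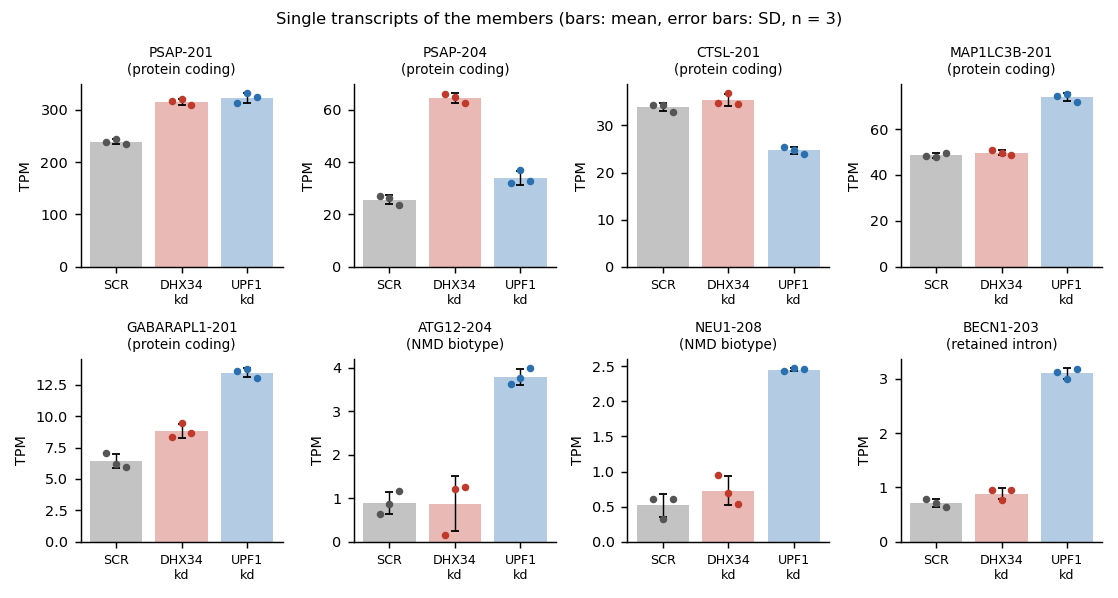
Bars are mean TPM of single transcripts in SCR, DHX34 knockdown and UPF1 knockdown (kd), with SD over 3 libraries as error bars and each library as a point. PSAP-204 is highest after DHX34 knockdown, CTSL-201 lowest after UPF1 knockdown, and the 2 NMD transcripts and BECN1-203 are highest after UPF1 knockdown.

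Transcripts annotated as NMD targets were counted in the 26 of the 35 genes that had one and reached a mean of 1 TPM. Their share of the gene's TPM in the 3 knockdown libraries lay above all 3 SCR libraries in 10 of 26 genes after UPF1 knockdown and below in 0. Over all 4796 genes that met the same conditions 28.9% lay above and 2.75% below. The median shift was 1.14 percentage points among the members and 0.779 over all genes. After DHX34 knockdown 2 lay above, GUSB and SQSTM1, and 2 below, BECN1 and HEXA, where 6.96% and 6.14% of all genes did. With 3 libraries against 3, no exact permutation test of such a share can give a p below 0.10.

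The 10 genes were ATG12, ATP6V0D1, ATP6V1A, BECN1, GABARAP, GABARAPL1, GLA, GUSB, LAMP2 and NEU1. Of these 10 genes ATG12 had the highest NMD level after UPF1 knockdown. Its NMD transcripts were at 1.56, 2.81 and 2.43 TPM in SCR, 1.38, 2.86 and 2.90 TPM after DHX34 knockdown and 8.49, 9.02 and 8.88 TPM after UPF1 knockdown. Its coding transcripts were at 12.7, 11.7 and 12.98 TPM in SCR, 12.7, 14.4 and 13.6 TPM after DHX34 knockdown and 21.6, 22.3 and 21.7 TPM after UPF1 knockdown. Both classes were higher after UPF1 knockdown in every library. The NMD share went from 6.85% ± 1.77 in SCR to 16.2% ± 0.534 (SD, n = 3). ATG12-209, a retained-intron transcript, fell in share from 49.3, 51.97 and 53.6% to 38.6, 37.95 and 39.3% while its TPM went from 15.1, 16.9 and 19.2 to 20.98, 20.5 and 21.5. In GABARAPL1 coding transcripts read 7.34, 6.94 and 6.46 TPM in SCR and 14.2, 14.1 and 13.6 TPM after UPF1 knockdown. Its NMD transcripts read 0.200, 0.431 and 0.0785 TPM in SCR and 1.07, 1.22 and 2.04 TPM after UPF1 knockdown. MAP1LC3B coding transcripts read 49.8, 49.4 and 51.6 TPM in SCR and 74.6, 78.01 and 75.7 TPM after UPF1 knockdown, and its NMD share overlapped between these groups.

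After UPF1 knockdown GUSB, NEU1, ATP6V0D1, ATP6V1A, BECN1 and GLA showed an NMD shift with no gene call in the main edgeR fit. Limma on log2(TPM + 0.5) called GUSB, NEU1, ATP6V0D1 and GLA higher. The NMD transcripts of ATP6V1A were at low levels, with means of 0.0533 TPM in SCR and 0.425 TPM after UPF1 knockdown. The NMD share of GABARAP, which was called lower as a gene after UPF1 knockdown, was small. It was 0.565% ± 0.305 in SCR, 1.05% ± 0.236 after DHX34 knockdown and 0.937% ± 0.0891 after UPF1 knockdown. In GUSB the share was 4.84% ± 0.792 in SCR, 7.20% ± 1.49 after DHX34 knockdown and 12.7% ± 0.977 after UPF1 knockdown, with no overlap between SCR and either knockdown. In NEU1 it was 1.24% ± 0.404, 1.49% ± 0.383 and 4.75% ± 0.108. In ATG5 the NMD class was large and its share overlapped between groups, at 65.7% ± 13.7 in SCR and 76.2% ± 3.29 after UPF1 knockdown. HEXA, with 41.6% ± 2.62 in SCR, was lower after DHX34 knockdown at 36.4% ± 0.517 and overlapped SCR after UPF1 knockdown. WIPI1 listed NMD transcripts at 1.34 TPM in SCR replicate 1 and at 0 in the other 8 libraries.

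**Figure D5:**
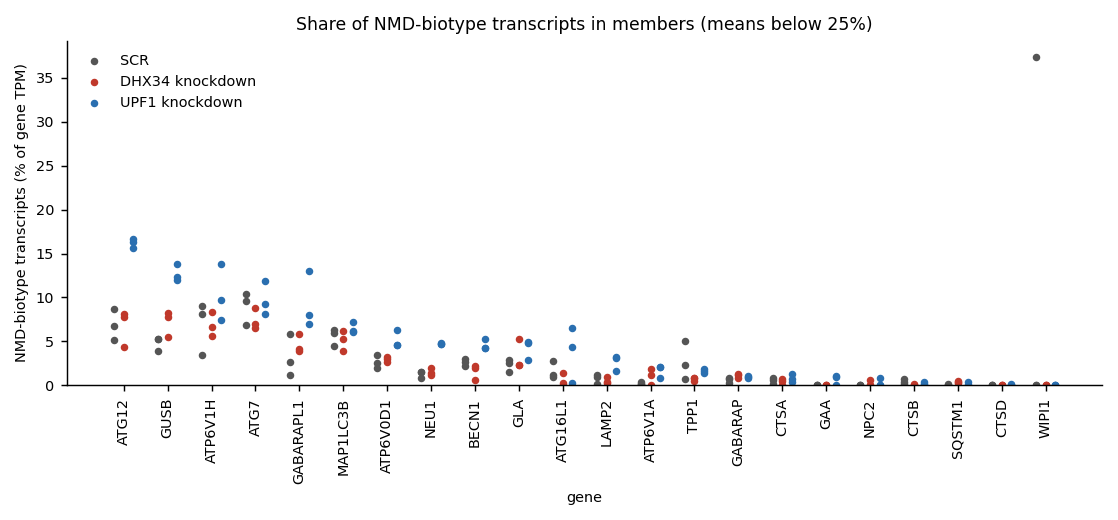
Points are the share of a gene's TPM in transcripts annotated as NMD targets, in percent, in each of the 9 libraries, for the 22 members whose group means all lay under 25%. ATG12, GUSB and NEU1 stand higher in the 3 UPF1 knockdown libraries than in SCR, and the single high WIPI1 point is 1 SCR library.

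Large shifts in share were also seen in TPP1, WIPI1 and MCOLN1. TPP1-212, a model of 560 bases with no defined coding sequence, took 9.37, 22.6 and 9.44% of TPP1 TPM in SCR and 28.8, 27.5 and 25.1% after DHX34 knockdown, and the coding TPP1-201 took 80.9, 72.5 and 85.7% and 67.8, 68.2 and 68.8%. The TPM of TPP1-201 still went from 17.9, 18.5 and 18.4 to 23.8, 24.1 and 25.7, with no overlap. WIPI1-204, of 780 bases, was listed at 0 in SCR replicate 1 and at 42.3% and 42.4% in the other 2, beside 48.6, 48.2 and 42.7% after DHX34 knockdown. MCOLN1-208, a coding model of 666 bases, took 17.3, 14.4 and 11.6% in SCR and 0.881, 7.72 and 6.35% after UPF1 knockdown. None of these 4 was called as a transcript by edgeR in either knockdown.

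The other genes of these systems were read in 6 lists, whose median log2 fold changes lay between -0.10 and 0.18 after DHX34 knockdown and between -0.11 and 0.19 after UPF1 knockdown, beside 0.02 over all genes in each. Of 33 other lysosomal hydrolases tested, 7 rose and 1 fell after DHX34 knockdown, against 10.4% of all genes called, and 6 rose and 5 fell after UPF1 knockdown, against 25.3%. CTSS, a cathepsin of antigen-presenting cells, was 4.51, 4.83 and 5.76 CPM in SCR, 15.5, 14.3 and 13.3 CPM after DHX34 knockdown and 4.42, 3.60 and 3.45 CPM after UPF1 knockdown. It was highest after DHX34 knockdown, at 1.51 ± 0.1 (SE; adjusted p in edgeR = 5.89e-06), and -1.90 ± 0.1 (SE; adjusted p in edgeR = 2.9e-07) in the direct comparison, and LYZ, a myeloid lysozyme in the marker list, moved with it at 0.96 ± 0.06 (SE; adjusted p in edgeR = 3.42e-06); its part in the CTSS value was not tested. PLBD2 (0.40) and the galactosylceramidase GALC (0.44) also rose after DHX34 knockdown, and IDS, the iduronate sulfatase, fell in both, with -0.37 ± 0.053 (SE; adjusted p in edgeR = 0.000659) and -0.45 ± 0.05 (SE; adjusted p in edgeR = 2.15e-05). GALC, GALNS and PPT2 rose after UPF1 knockdown by 0.35, 0.30 and 0.30. PLBD2 was called higher after UPF1 knockdown too, and PPT2 after DHX34 knockdown too. SCPEP1 rose after DHX34 knockdown and fell after UPF1 knockdown, with a direct difference of -0.75 ± 0.064 (SE; adjusted p in edgeR = 8.88e-06).

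Of 23 other lysosomal membrane and transport proteins 4 rose and 0 fell after DHX34 knockdown, where 1 was lower at an unadjusted p under 0.05 and DESeq2 called 0 lower, and 6 rose and 3 fell after UPF1 knockdown. Over all genes 10.4% and 25.3% were called in these comparisons. LAPTM5, a lysosomal membrane protein of blood cells, was 15.7, 13.9 and 15.3 CPM in SCR, 40.1, 41.5 and 38.3 CPM after DHX34 knockdown and 10.7, 11.96 and 11.5 CPM after UPF1 knockdown. The 3 groups were apart, with 1.42 ± 0.059 (SE; adjusted p in edgeR = 3.33e-07) and -0.40 ± 0.067 (SE; adjusted p in edgeR = 0.000478). IGF2R, the receptor that carries hydrolases to the lysosome, and GNPTAB, which makes their mannose 6-phosphate tag, rose after DHX34 knockdown by 0.43 and 0.36. Both genes were called higher after UPF1 knockdown too. After UPF1 knockdown SCARB2, the receptor for glucocerebrosidase, rose by 0.48 ± 0.044 (SE; adjusted p in edgeR = 4.88e-06), the chloride exchanger CLCN7 by 0.41 and the cystine exporter CTNS by 0.37, while LAPTM4A changed by -0.38 and SORT1 by -0.21.

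Among the 15 other V-ATPase genes 1 rose and 2 fell after DHX34 knockdown, beside 10.4% called over all genes, and 2 rose and 7 fell after UPF1 knockdown, beside 25.3%. TCIRG1, the a3 subunit, rose after DHX34 knockdown by 0.53 ± 0.055 (SE; adjusted p in edgeR = 8.48e-05), and ATP6V0C and ATP6V1G1 fell, with log2 fold changes of -0.29 and -0.29. Both genes that fell were called lower after UPF1 knockdown too. After UPF1 knockdown ATP6V1F changed most, at -0.44 ± 0.033 (SE; adjusted p in edgeR = 1.16e-06), with ATP6V1G1 and ATP6V0E1 at -0.29 and -0.29, and the a1 subunit ATP6V0A1 and ATP6V0E2 rose by 0.26 and 0.28. The direct comparison gave 2 higher and 4 lower, beside 17.4% called over all genes.

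In the other core autophagy genes 2 of 31 rose after DHX34 knockdown and 0 fell, where 8 were lower at an unadjusted p under 0.05 and DESeq2 called 1 lower. Of 30 tested after UPF1 knockdown 7 rose and 2 fell, where the shares called over all genes were 10.4% and 25.3%. RUBCN, an inhibitor of autophagosome maturation, rose in both, by 0.53 ± 0.051 (SE; adjusted p in edgeR = 5.08e-05) and 0.46 ± 0.044 (SE; adjusted p in edgeR = 6.46e-06). ATG2A, a lipid transfer protein, rose after DHX34 knockdown by 0.47 ± 0.047 (SE; adjusted p in edgeR = 6.17e-05), and its homologue ATG2B and the tether EPG5 rose after UPF1 knockdown by 0.37 and 0.54. The fusion proteins VAMP8 and SNAP29 fell after UPF1 knockdown, at -0.38 ± 0.035 (SE; adjusted p in edgeR = 4.88e-06) and -0.23 ± 0.037 (SE; adjusted p in edgeR = 0.000346), while their partner STX17, named after its values were seen, rose by 0.27 ± 0.059 (SE; adjusted p in edgeR = 0.00285). ATG4B, the protease that trims ATG8 proteins, ATG13 of the ULK1 complex and ATG4D were higher after UPF1 than after DHX34 knockdown by 0.42, 0.29 and 0.25.

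Of 16 autophagy receptors 3 rose and 0 fell after DHX34 knockdown, where 6 were lower at an unadjusted p under 0.05 and DESeq2 called 2 lower, and 2 rose and 3 fell after UPF1 knockdown, with 10.4% and 25.3% of all genes called. CCPG1, a receptor for the endoplasmic reticulum, rose in both, by 0.27 ± 0.049 (SE; adjusted p in edgeR = 0.00273) and 0.63 ± 0.038 (SE; adjusted p in edgeR = 1.96e-07). OPTN and the mitochondrial receptor BNIP3L, which clears mitochondria from maturing red cells, rose after DHX34 knockdown by 0.67 ± 0.11 (SE; adjusted p in edgeR = 0.00161) and 0.34 ± 0.046 (SE; adjusted p in edgeR = 0.000461). CALCOCO2 rose after UPF1 knockdown by 0.32, and the mitochondrial receptors FUNDC1, FKBP8 and BNIP3 changed by -0.30, -0.30 and -0.29. NBR1, which works with SQSTM1, was 0.26 higher after UPF1 than after DHX34 knockdown.

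Of 26 genes of nutrient sensing at the lysosome 0 rose and 1 fell after DHX34 knockdown, where 7 were higher at an unadjusted p under 0.05 and DESeq2 called 1 higher, and 5 rose and 6 fell after UPF1 knockdown, beside all-gene shares of 10.4% and 25.3%. RHEB, the GTPase that activates mTORC1, fell after DHX34 knockdown, at -0.30 ± 0.043 (SE; adjusted p in edgeR = 0.000694), and was called lower after UPF1 knockdown too. SESN2, a leucine sensor induced by stress, rose after UPF1 knockdown from 62.7, 64.5 and 67.2 CPM in SCR to 101, 102 and 101 CPM, by 0.64 ± 0.033 (SE; adjusted p in edgeR = 6.86e-08), with 60.3, 61.8 and 60.03 CPM after DHX34 knockdown. ZKSCAN3, a repressor of autophagy genes, and FNIP1, a partner of folliculin, rose by 0.49 and 0.41. LAMTOR5 and LAMTOR4, which anchor mTORC1 to the lysosome, changed by -0.47 ± 0.044 (SE; adjusted p in edgeR = 5.88e-06) and -0.39 ± 0.047 (SE; adjusted p in edgeR = 4.29e-05). MITF, a relative of TFEB and TFE3, was higher after UPF1 than after DHX34 knockdown by 0.41 ± 0.059 (SE; adjusted p in edgeR = 0.000347).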

How the data were processed

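Poly(A)-selected RNA of 9 K562 libraries was sequenced, and per the labels reads were quantified by the authors with salmon against GRCh38 transcripts. The deposited files hold estimated counts, effective lengths and TPM for each of 203027 transcripts. The deposited sleuth and splicing tables hold the authors' own comparisons and were not used. Of the transcripts 198775 (97.9%) were matched by identifier to GENCODE 44, which gave gene names, GRCh38 coordinates and NMD annotations and held 98.1% of counts, and 85.8% of them had the same length. Counts were summed per gene and rounded.

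Groups come from the sample titles. The study calls the replicates biological. Gene and transcript counts were tested with edgeR 4.0.16 (glmQLFTest, TMM, filterByExpr with a minimum count of 10; R 4.3.3), adjusted by Benjamini-Hochberg over all features, and called at 0.005. Alternatives used DESeq2 1.42.0 and limma 3.58.1. Scripts were tested on simulated data. With 73478797 to 103625443 counts per library, estimated counts also carry the uncertainty of assigning shared reads. All 35 genes are named, with values in every library for those called without overlap and, for the other lists, at most 3 called genes per direction and comparison. Transcripts are named where called or among the 6 largest shifts in share, and PSAP-204 falls outside that rule. The genes, lists and tests were chosen with earlier results of these data known. Values of some listed genes are not reported here.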

Additional observations from a re-analysis of the deposited data

How the results depend on the processing

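Counts were recomputed under other settings, of which the limma fits change both the test and the unit. No gene of the 35 that was called changed sign. The 35 genes had 5 calls after DHX34 knockdown, 13 at an adjusted p of 0.05, 9 with DESeq2, 12 without TMM factors, 9 with no filter on low counts and 8 with all 9 libraries in 1 fit, and 3 to 7 when 1 library was left out. After UPF1 knockdown there were 14 calls, 22 at 0.05 and 11 to 13 without 1 library, and in the direct comparison 10, 6 with length-scaled counts and 8 to 10 without 1 library. Over all genes the DHX34 calls were 1768, with 4403 at 0.05, 3034 with DESeq2, 3396 with no filter, 741 with length-scaled counts, 879 and 805 by limma on log2(TPM + 0.5) and log2(TPM + 1), 402 by limma on the same values centred on the median, an alternative chosen after seeing the data, and 781 to 1785 without 1 library. The UPF1 calls were 4345, with 6917 at 0.05, 2762 with length-scaled counts, 2263 with centring and 3187 to 3733 without 1 library. The direct calls were 3026, with 5691 at 0.05, 1674 with length-scaled counts, 1441, 1431 and 1382 in the 3 limma fits and 1915 to 3867 without 1 library. Transcript calls of the 35 genes were 0 after DHX34 knockdown, 5 at 0.05, 2 with a minimum count of 50, 6 with DESeq2 and 0 to 0 without 1 library. After UPF1 knockdown they were 5, 25, 8 and 34 under the same settings, and 0 to 1 without 1 library. The NMD shares that separated numbered 4 after DHX34 knockdown and 5 to 8 without 1 library, and 10 after UPF1 knockdown and 10 to 13. The log2 ratio of the summed TPM was 0.27 and 0.30, 0.12 and 0.14 in CPM, and 0.26 to 0.28 and 0.29 to 0.31 without 1 library. Without DHX34 replicate 3 the calls after DHX34 knockdown were 7 among the 35 genes and 1785 over all genes. The direct calls over all genes were 3867 without it, so these upper ends come from 1 library left out. The fits without 1 library hold fewer samples, and the cause of these changes was not tested.

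The replicate numbers are shared across groups. Deviations from the group means of same-numbered libraries correlated at 0.04, -0.03 and -0.10 for DHX34 knockdown and SCR. They correlated at 0.04, -0.03 and -0.0012 for UPF1 knockdown and SCR, and at 0.03, 0.08 and -0.05 for the knockdowns. Not every library correlated best with its own number. Correlations near 0 from 3 libraries per group cannot show whether same-numbered libraries were paired. With a replicate block the DHX34 calls were 3 among the 35 genes, with PSAP and TFE3 lost, and 1007 over all genes. They were 2 and 568 with the gene length trend removed as well, and the UPF1 transcript calls were 0 with the block. The block left the gene counts after UPF1 knockdown at 14 and 4345.

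Estimated counts of transcripts that share sequence are less certain than those of whole genes.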
